A study of Mus musculus with 12 samples.

Results

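Livers of fasted C57BL/6 mice that had received an AAV8 virus carrying fumarate hydratase (FH) were compared with livers of fasted C57BL/6 mice that had received the AAV8 vector. This comparison takes 6 of the 12 RNA libraries of the study, 3 with AAV8-FH and 3 with AAV8-vector, chosen by their labels alone. The other 6, from ob/ob mice fed a high-fat diet, are not described. The mice of both groups were injected at 6 to 8 weeks of age and collected 1 month later, after a fast of 24 h, so both carried a virus and both were fasted. AAV8 is a virus capsid that reaches hepatocytes efficiently, but the labels name neither the promoter that drives FH nor the species of its sequence. The labels call the tissue liver and also name primary hepatocytes. Transcripts of 12 hepatocyte marker genes made up 7.34% to 9.59% (vector) and 13.8% to 15% (FH) of the counts, and markers of sinusoidal endothelium, Kupffer cells and blood were present in every library, so the RNA held more than hepatocyte transcripts. No label ties the 3 libraries of a group to different mice, so each p-value is relative to a spread that may be technical.

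Fumarate hydratase converts fumarate to malate in the tricarboxylic acid cycle of mitochondria, and a cytosolic form of the enzyme handles fumarate from the urea cycle and purine turnover. Fumarate that builds up can inhibit dioxygenases that use 2-oxoglutarate, among them the prolyl hydroxylases that mark hypoxia-inducible factors for decay, and can modify cysteines of KEAP1, the inhibitor of NRF2. The fasted liver oxidises fatty acids, makes glucose and ketone bodies, and breaks down its own lipid stores in lysosomes. The title of the study asks about FH, fatty liver and the autophagy of lipid droplets through the kinase ULK1. Levels below are counts per 1000000 counts (CPM) of each library's total unless TMM scaling is named.

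Promoter sequences are shown for 6 genes that were higher with FH on both scalings, because clock factors are known to bind the D-box and E-box and lysosomal genes are known for an E-box-like element, and both groups are described below. The D-box itself was nearly absent from the promoters of the clock lists, where Per3 was the 1 gene that held it. All 6 are the 250 bases before the RefSeq start of the gene in GRCm38.p6, read along the gene's own strand. Capitals mark the D-box TTATGTAA (on either strand, so also TTACATAA) in Alb and Per3, and the E-box CACGTG, which reads the same on both strands, in the others. Alb is albumin and Per3 a clock repressor. Bhlhe41 is a clock repressor, and Tspan4 a tetraspanin listed with the clock outputs. Ctsd and Gaa encode the lysosomal hydrolases cathepsin D and acid alpha-glucosidase.
Alb: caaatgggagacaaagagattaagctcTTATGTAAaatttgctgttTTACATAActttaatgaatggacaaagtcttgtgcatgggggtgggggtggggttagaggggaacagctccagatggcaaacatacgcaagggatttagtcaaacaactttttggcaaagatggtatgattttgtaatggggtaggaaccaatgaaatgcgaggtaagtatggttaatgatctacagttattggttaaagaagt
Per3: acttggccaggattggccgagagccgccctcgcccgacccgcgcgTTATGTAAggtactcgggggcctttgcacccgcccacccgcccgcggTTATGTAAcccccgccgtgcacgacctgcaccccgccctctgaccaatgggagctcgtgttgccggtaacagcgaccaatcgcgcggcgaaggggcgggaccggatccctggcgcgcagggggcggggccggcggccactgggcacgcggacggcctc
Bhlhe41: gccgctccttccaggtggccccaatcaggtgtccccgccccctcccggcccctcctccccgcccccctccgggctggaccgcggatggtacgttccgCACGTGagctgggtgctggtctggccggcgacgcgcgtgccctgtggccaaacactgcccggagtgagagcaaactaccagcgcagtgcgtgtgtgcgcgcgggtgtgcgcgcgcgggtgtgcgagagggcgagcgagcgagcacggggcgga
Tspan4: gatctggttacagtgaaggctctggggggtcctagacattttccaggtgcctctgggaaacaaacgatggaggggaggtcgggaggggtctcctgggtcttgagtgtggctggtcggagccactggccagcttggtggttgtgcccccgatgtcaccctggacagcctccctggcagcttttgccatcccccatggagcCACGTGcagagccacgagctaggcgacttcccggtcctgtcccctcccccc
Ctsd: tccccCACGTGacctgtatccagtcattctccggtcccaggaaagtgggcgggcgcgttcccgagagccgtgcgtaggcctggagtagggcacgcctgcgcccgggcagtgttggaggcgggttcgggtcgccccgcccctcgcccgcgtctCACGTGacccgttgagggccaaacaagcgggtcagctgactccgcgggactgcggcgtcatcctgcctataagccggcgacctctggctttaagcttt
Gaa: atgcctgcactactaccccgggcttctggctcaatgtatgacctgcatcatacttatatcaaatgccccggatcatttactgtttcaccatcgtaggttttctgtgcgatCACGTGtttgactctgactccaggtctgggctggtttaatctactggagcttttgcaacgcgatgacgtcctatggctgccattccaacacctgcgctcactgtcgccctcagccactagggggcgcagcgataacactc
The Alb window is chr5:90460620-90460869 (plus strand), and its D-boxes begin 223 and 204 bases before the start. The Per3 window is chr4:151044666-151044915 (minus strand), with D-boxes at 205 and 158 bases. The Bhlhe41 window is chr6:145865421-145865670 (minus strand), the Tspan4 window chr7:141476130-141476379 (plus strand), the Ctsd window chr7:142387828-142388077 (minus strand) and the Gaa window chr11:119267713-119267962 (plus strand). A match is a description of letters and not a measured binding site.

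The RNA make-up of the libraries differed between the groups, and every gene result stands beside that. The vector libraries held 12231828 to 14884323 counts and the FH libraries 19107050 to 25873379. The 50 genes of highest share took 30.4% to 34.1% of the counts with the vector and 38.7% to 39.2% with FH, and albumin alone rose from 3.70% to 5.07% up to 7.90% to 8.97%. When all libraries were thinned to 12231828 counts, 20278 to 20953 genes were detected with the vector and 17318 to 17775 with FH. TMM scaling, which sets the bulk of genes to no change, gave factors of 1.20 to 1.31 with the vector and 0.80 to 0.82 with FH. With library totals as the only scaling, the choice moved each log2 fold change by a median of -0.62. Libraries correlated at 0.98 or more (Pearson, log2 CPM across genes) within a group and at 0.95 or less across groups.

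Of 13600 genes tested with edgeR's quasi-likelihood test, 3915 (28.8%) were higher and 4008 (29.5%) lower with FH on TMM scaling at an adjusted p under 0.05. On library totals 1098 (8.07%) were higher and 7563 (55.6%) lower. With upper-quartile factors in edgeR the split was 2789 higher and 5084 lower. Each of the 1098 genes higher on totals was also higher on TMM scaling, and each of the 4008 lower on TMM scaling was also lower on totals, so 8.07% rose and 29.5% fell on both. In either direction 58.3% were called on TMM scaling and 63.7% on totals. The FH libraries lay above all vector libraries in 31.6% of genes on TMM scaling and 10.3% on totals, and below all of them in 31.8% and 58%. Below, rose and fell mean called in that direction on both scalings unless 1 scaling is named. List counts below stand beside these shares of all genes: 8.07% rose, 29.5% fell, 28.8% were higher on TMM scaling and 55.6% lower on totals. A further 2815 genes (20.7%) were higher on TMM scaling and not called on totals, 3553 (26.1%) were lower on totals and not called on TMM scaling, and 2124 (15.6%) were called on neither. For 2 genes (0.0147%) the calls were opposed, higher on TMM scaling and lower on totals. Fam8a1 stood at 0.32 on TMM scaling and -0.30 on totals, and the lysosomal GTPase gene Arl8b at 0.33 and -0.29, and neither gene kept both calls when any 1 library was left out. At least 2-fold on both scalings, 188 genes rose (1.38%) and 2635 fell (19.4%). The median over all tested genes was -0.02 on TMM scaling and -0.64 on totals, and -0.56 on totals over protein-coding genes only. The plot of fold change against level shows fallen genes at every level, most densely at low ones, and few risen genes at low levels.

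**Figure D1:**
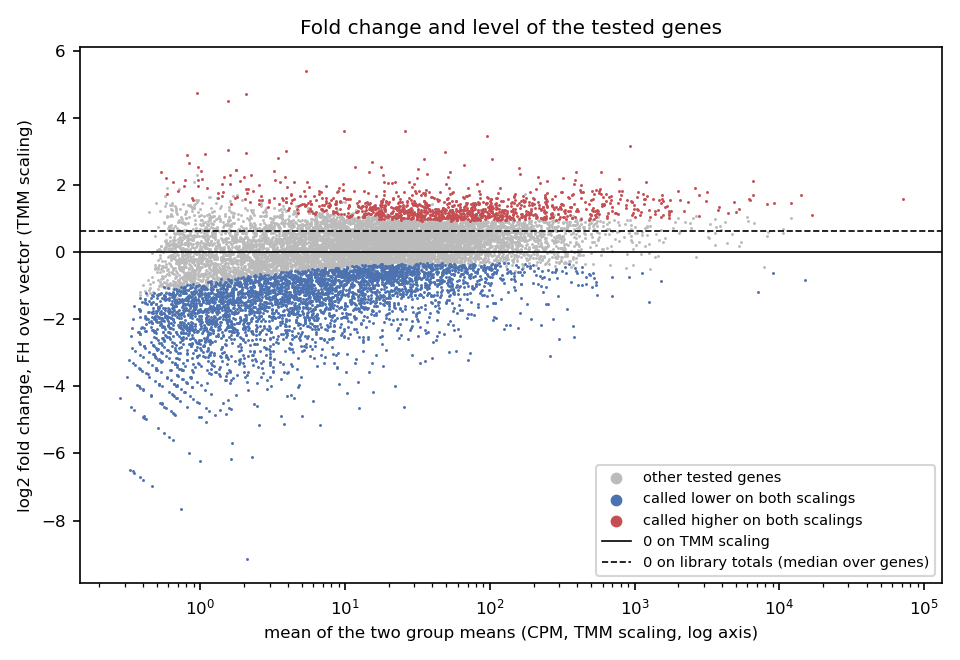
Log2 fold change of FH over vector on TMM scaling (vertical axis) against the mean of both group means in CPM (horizontal log axis) for the 13600 tested genes. Red points are the 1098 genes higher and blue points the 4008 genes lower on both scalings, and the dashed line, at 0.62, is where library totals place no change.

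The targeted gene was higher in all 3 FH libraries. Fh1, the mouse gene of fumarate hydratase, was at 355, 458 and 293 CPM with the vector and 685, 527 and 571 CPM with FH. The groups did not overlap. The log2 fold change was 1.30 on TMM scaling (SE 0.20, edgeR adjusted p = 1.32e-04) and 0.69 on totals (SE 0.18, adjusted p = 0.00541). Transcripts of the delivered and the endogenous gene cannot be told apart in these counts. The rise was near the median of the 12 hepatocyte markers, which was 1.27 on TMM scaling and 0.65 on totals. The part of the delivered gene in this rise was not tested. Ulk1, the autophagy kinase named in the study's title, was at 60.2, 83.7 and 94.5 CPM with the vector and 55.2, 51.2 and 42.9 CPM with FH. Its FH libraries all lay below the vector libraries on totals, where the log2 fold change was -0.68 (SE 0.17, edgeR adjusted p = 0.00477), but on TMM scaling the groups overlapped at -0.05 (SE 0.16, adjusted p = 0.816). That TMM value turned positive without FH replicate 3 (0.01), vector replicate 2 (0.04) or vector replicate 3 (0.02).

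**Figure D2:**
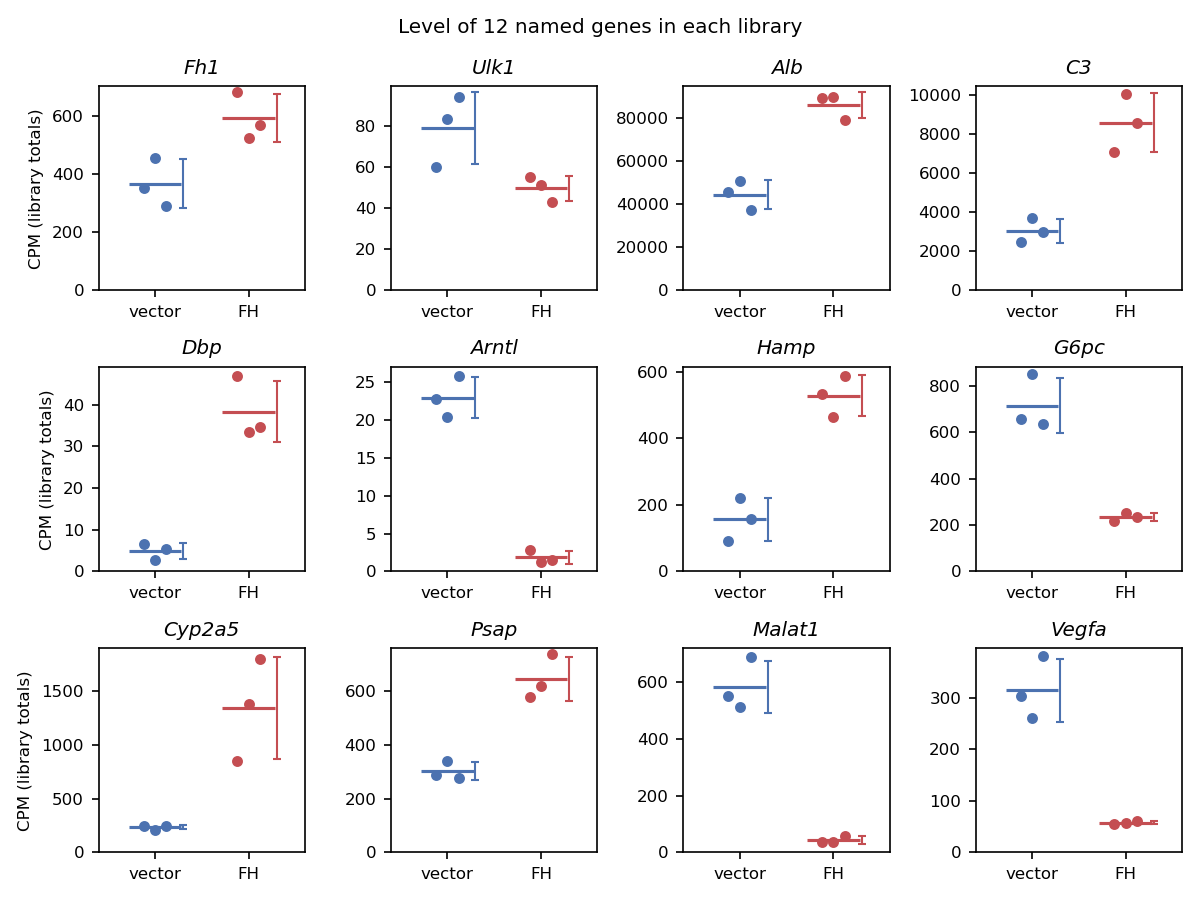
Level in CPM of library totals (vertical axes from 0) of 12 genes in the 3 vector (blue) and 3 FH (red) libraries, replicates 1 to 3 from left to right, with the group mean as a line and the SD as a bar beside it. In all 12 panels the points of the groups do not overlap.

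The 10 largest rises among well-expressed genes were led by Dbp, Rgs16 and Cyp2a5. Dbp, a transcription factor that binds the D-box and cycles strongly in liver, was at 6.64, 2.69 and 5.396 CPM with the vector and 46.8, 33.5 and 34.6 CPM with FH, and its log2 fold change was 3.60 on TMM scaling (SE 0.26, edgeR adjusted p = 1.28e-06) and 2.98 on totals. Rgs16, a brake on G-protein signalling, followed with 29.9, 18.2 and 10.6 against 119, 179 and 124 CPM. Cyp2a5, a cytochrome P450 that oxidises coumarin and nicotine, went from 244, 213 and 250 to 854, 1382 and 1803 CPM (3.15 on TMM scaling, 2.52 on totals). No library of one group reached the range of the other for these 3 genes. Usp2, a clock-controlled deubiquitinase (2.97 on TMM scaling), Serpina6, the plasma carrier of glucocorticoids (2.59), Acot3, a peroxisomal thioesterase (2.68), Ttc36 (2.52), Syt1 (2.52) and Lars2 (2.78) also rose. Egr1, an immediate early factor, rose by 2.77 with an uneven spread, at 105, 24.5 and 19.3 CPM in the FH libraries against 10.5, 12.2 and 10.3 CPM, so that FH replicate 1 stood far above the other FH libraries.

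The 10 largest falls were of 6 coding genes, 2 noncoding RNAs and 2 pseudogenes. Malat1, a nuclear RNA that is not translated, went from 550, 511 and 687 to 36.2, 36.5 and 58.4 CPM (-3.10 on TMM scaling, SE 0.21, edgeR adjusted p = 9.88e-07, and -3.74 on totals). Chka, the choline kinase that begins phosphatidylcholine synthesis, fell from 155, 113 and 208 to 13.9, 9.93 and 9.28 CPM (-3.22 and -3.85). Peg3, a paternally expressed zinc finger gene, fell from 62.4, 78.9 and 99.9 to 3.72, 5.97 and 6.49 CPM. The highest FH library lay well below the lowest vector library for each of the 3. Pnisr and Leng8, whose products are tied to splicing and RNA processing, fell by 3.02 and 2.99 on the TMM log2 scale, the zinc finger gene Zfp950 by 3.08 and the interferon-inducible Mndal by 3.07. Hand2os1 fell by 3.40, Gtpbp4-ps1 by 3.56 and Cyp2d38-ps by 3.17. Hand2os1 lies antisense to Hand2 and the last 2 are pseudogene copies, and since the counting's strand and multi-mapping settings are not given, reads of their partners cannot be told apart.

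Measured by the CPM gained on totals, secreted and metabolic products of the hepatocyte led. Alb was at 45427, 50675 and 37039 CPM with the vector and 88928, 89737 and 78955 CPM with FH, with a log2 fold change of 1.57 on TMM scaling (SE 0.28, edgeR adjusted p = 4.44e-04) and 0.95 on totals (adjusted p = 0.0021). Cyp2e1, the ethanol-oxidising P450, went from 7869, 8762 and 7894 to 14389.9, 17808 and 19631 CPM, and Trf, transferrin, from 7707, 8462 and 7618 to 11511, 15739 and 15157 CPM. The other large gains were of C3, Apoe, Cps1 (carbamoyl phosphate synthetase of the urea cycle, 1.42 on TMM scaling and 0.80 on totals), Cyp4a14 and Cyp4a10. For Apoe the call on totals (0.48, edgeR adjusted p = 0.0349) was lost without FH replicate 1 (0.49, adjusted p = 0.06397) or 3 (0.41, adjusted p = 0.122) or vector replicate 1 (0.47, adjusted p = 0.0595) or 3 (0.42, adjusted p = 0.109). The largest losses were of Mup3, from 25037, 20333 and 27053 to 8114, 9366 and 8516 CPM, and Mup20, from 11139, 13001 and 12900.2 to 3290.4, 4364 and 2931 CPM, which are major urinary proteins. Selenop, the selenium carrier of plasma, fell from 15214, 10990.3 and 14472 to 5668, 5961 and 5436 CPM on totals (-1.25). On TMM scaling it stood at -0.63 (adjusted p = 0.0211), a call lost without FH replicate 1 (-0.65, adjusted p = 0.06704), 2 (-0.69, adjusted p = 0.0518) or 3 (-0.64, adjusted p = 0.0774) or vector replicate 1 (-0.53, adjusted p = 0.0678). Insig2, which holds back the SREBP sterol sensors and is induced by fasting, fell from 1002, 1635 and 1059 to 355, 263 and 347 CPM. Sult2a8, Cyp3a25, Slco1b2 and Cfhr2 completed the 8 largest losses, with -1.496, -0.85, -0.62 and -0.73 on TMM scaling.

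Most coagulation genes rose. Of 23 tested, 15 rose and 0 fell on both scalings (background 8.07% and 29.5%), and 21 were higher on TMM scaling and 1 lower on totals. The median was 1.22 on TMM scaling and 0.60 on totals, against -0.02 and -0.64 over all genes. Hrg, a histidine-rich plasma glycoprotein, was at 795, 1029 and 858 CPM with the vector and 1749, 1924 and 1992 CPM with FH (1.70 on TMM scaling, edgeR adjusted p = 1.11e-05). Proc, the anticoagulant protein C, went from 241, 260.1 and 266 to 409, 409 and 436 CPM, and F7, coagulation factor VII, from 63.1, 65.2 and 74.1 to 101, 89.3 and 89.5 CPM. In each the FH libraries lay above all vector libraries. Among plasma carriers 10 of 17 rose, with Serpina6 at 29.9, 20.5 and 20.1 against 71.4, 111 and 93.2 CPM, the fetuin Fetub at 1.75 on TMM scaling and the hyaluronan-binding Itih2 at 1.59, and Selenop was the 1 that fell. The carriers' median was 1.08 on TMM scaling and 0.45 on totals.

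Complement genes went both ways. Of 24, 9 rose and 4 fell. C3, the central complement protein made mainly by hepatocytes, went from 2457, 3689 and 2976 to 7069, 10086 and 8585 CPM (2.12 on TMM scaling, SE 0.24, edgeR adjusted p = 1.52e-05, and 1.497 on totals). Serping1, the C1 inhibitor, rose by 1.55 on TMM scaling and the protease C1ra by 1.43. The falls were of C1qa, C1qb and C1qc, the C1q chains made by macrophages, and of Cd5l, a macrophage-secreted protein. C1qb was at 37.5, 45.2 and 38.8 CPM with the vector and 15.5, 14.9 and 17.2 CPM with FH (-0.73 on TMM scaling), and Cd5l at 89.7, 178 and 120.4 against 38.3, 46.3 and 46.8 CPM (-0.95). The summed macrophage markers moved with them, as given below with the other cell types.

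Acute-phase genes did not move as 1 group. Of 22, 2 rose and 4 fell, and 9 were higher on TMM scaling and 5 lower on totals. The rises were close to the 8.07% of all genes and the falls below the 29.5%. Itih4, an inhibitor heavy chain of plasma, rose from 502, 706 and 560.1 to 1294, 1497 and 1192 CPM and the antichymotrypsin-like Serpina3n from 288, 563 and 374 to 1039, 817 and 681 CPM. Saa1, serum amyloid A, was at 31.9, 88.01 and 232 CPM with the vector and 17.3, 16.98 and 28.7 CPM with FH, a fall of 1.82 on the TMM log2 scale (edgeR adjusted p = 0.00508), and Saa2 stood at -1.99 (adjusted p = 0.0172). In the vector group both were highest in replicate 3. Without vector replicate 3 none of the 4 falls stayed on both scalings, with Saa1 at -0.98, adjusted p = 0.0526 and Saa2 at -0.90, adjusted p = 0.223, and 2 stayed without FH replicate 3. The copies Saa1 and Saa2 are near-identical, so their reads may be shared.

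Major urinary proteins, pheromone carriers that male mouse liver makes in great amounts, fell in 10 of 18 tested cases (22 in the table) and rose in 0. Mup22 went from 59.9, 66.98 and 67.04 to 16.2, 18.3 and 19.1 CPM (-1.23 on TMM scaling) and Mup19 from 16.9, 25.9 and 16.8 to 1.36, 3.08 and 2.74 CPM (-2.42). The median was -0.70 on TMM scaling and -1.32 on totals. Without vector replicate 2 the falls on both scalings numbered 5, and without FH replicate 1 there was 1 rise. The Mup genes are near-identical copies, and how the counting shared their reads is not given, so single members are uncertain. Other genes with a known male bias went both ways. Of 15 tested (16 in the table), 4 rose and 5 fell, or 3 without FH replicate 1 and 1 without vector replicate 3. The 5 falls were a share close to the 29.5% of all genes. Cyp4a12a, an arachidonic acid hydroxylase, rose from 103, 129 and 100.2 to 200, 295 and 292 CPM, and Cyp2d9 rose by 1.36 on TMM scaling. Hsd3b5 stood at -1.21 on TMM scaling (edgeR adjusted p = 0.0144), a call lost without vector replicate 3 (-0.78, adjusted p = 0.116). Of 11 tested female-biased genes (18 in the table), 4 rose and 0 fell, or 2 rose without vector replicate 2, vector replicate 3 or FH replicate 3, and 1 fell without FH replicate 3. Cyp2b9 was nearly absent with the vector, at 0.243, 0.134 and 0.164 CPM, and stood at 2.56, 3.77 and 3.21 CPM with FH (2 to 3 counts per library against 49 to 83, edgeR adjusted p = 3.14e-06). In the growth hormone and IGF axis 3 of 17 rose and 1 fell, or 2 without vector replicate 1 or FH replicate 1. On TMM scaling Igfals rose by 1.52, and the genes of the IGF1-binding proteins Igfbp4 and Igfbp2 by 1.52 and 1.41. The growth-hormone-induced Socs2 fell from 19.8, 13.7 and 10.6 to 1.52, 4.75 and 4.99 CPM.

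**Figure D3:**
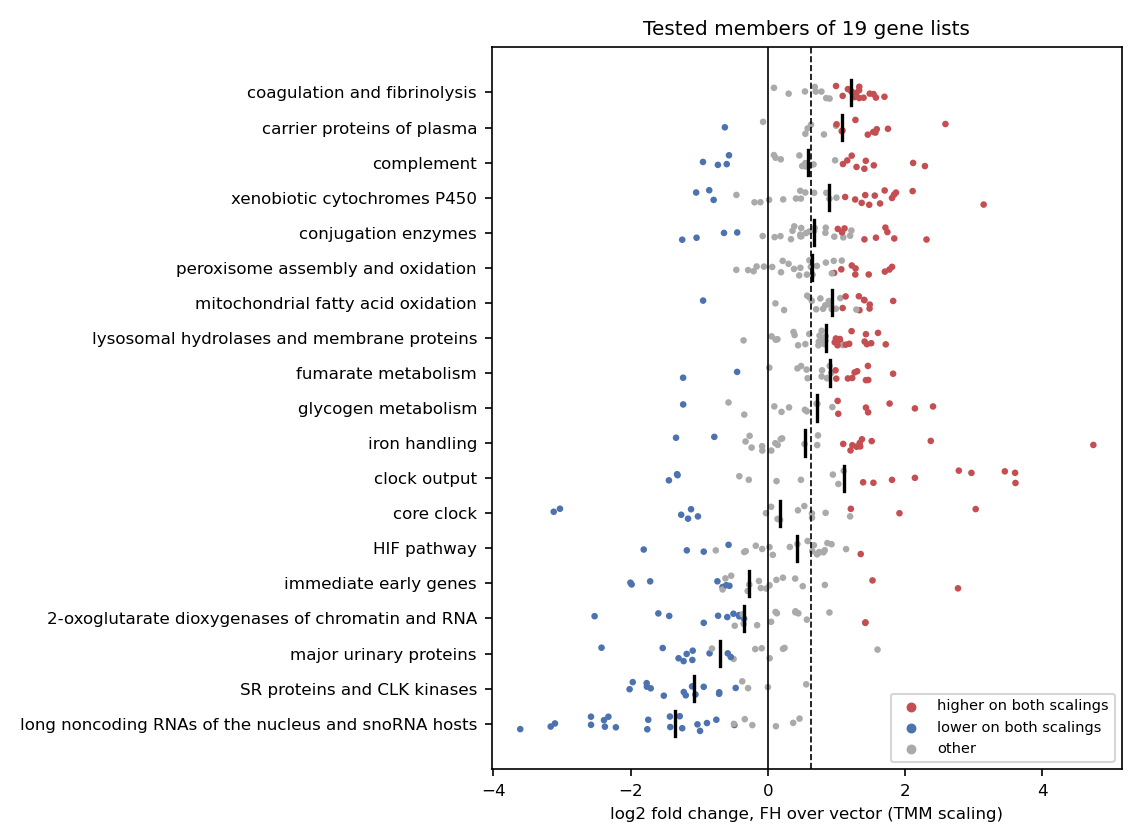
Log2 fold change of FH over vector on TMM scaling (horizontal axis) for the tested members of 19 gene lists (rows), 1 point per gene, with the list median as a black bar. Red and blue points were higher and lower on both scalings, and the dashed line at 0.62 is where library totals place no change: coagulation genes have a median of 1.22 and nuclear noncoding RNAs one of -1.35.

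Enzymes around fumarate rose more often than they fell. Of 23 tested genes that make, use or carry fumarate and its neighbours (24 in the table), 10 rose and 2 fell, and 19 were higher on TMM scaling. On totals 3 were lower. The rises on both scalings numbered 6 without vector replicate 3. Got2, the mitochondrial aspartate aminotransferase, was at 273, 308 and 249 CPM with the vector and 661, 614 and 638 CPM with FH (1.83 on TMM scaling, edgeR adjusted p = 3.56e-06, and 1.21 on totals). Slc25a10, which carries dicarboxylates such as malate and succinate across the inner membrane, went from 116, 106 and 92.1 to 196, 167 and 198 CPM. Sdha, the subunit of succinate dehydrogenase that makes fumarate, went from 245, 279 and 241 to 476, 455 and 412 CPM. Neither the ranges of Got2 nor those of the other 2 overlapped. The subunit Sdhd stood at -0.45 on TMM scaling (adjusted p = 0.0344), opposite to Sdha, but lost that call without any FH replicate or vector replicate 1 (-0.53 to -0.28), and the falls numbered 1 in those 4 cases. Me2, the mitochondrial malic enzyme, fell from 4.29, 3.96 and 4.66 to 0.994, 1.47 and 1.08 CPM.

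Genes of fatty acid oxidation outside the mitochondrion rose where they changed on both scalings, with 1 exception. Of 30 peroxisomal genes 9 rose and 0 fell, and 20 were higher on TMM scaling. On totals 7 were lower, and the median was 0.02. Pex5, the import receptor of the peroxisome, was at 86.5, 89.3 and 75.95 CPM with the vector and 128, 134 and 135 CPM with FH (1.28 on TMM scaling, SE 0.14, edgeR adjusted p = 1.34e-05, and 0.65 on totals). The membrane assembly gene Pex16 went from 66, 66.2 and 61.2 to 105, 82.6 and 118 CPM (1.28 on TMM scaling). In microsomal omega-oxidation 5 of 12 rose, and 2 were lower on totals. Cyp4a10 went from 3519, 4780.2 and 3072 to 8123, 6559.8 and 9414 CPM, Cyp4a14 from 6677, 6892 and 4421 to 10606, 9406 and 12563 CPM and Cyp4a31 from 63.8, 80.7 and 53.6 to 181, 191 and 273 CPM. All 3 are fatty acid hydroxylases under PPARalpha, and the copies Cyp4a10 and Cyp4a31 are similar enough that reads may be shared. Adh7 was the 1 that fell, by 1.10 on the TMM log2 scale.

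In mitochondrial fatty acid oxidation 9 of 25 rose, 22 were higher on TMM scaling and 3 lower on totals. The rises on both scalings numbered 14 without vector replicate 1. Hadha, the trifunctional protein's alpha subunit, went from 357, 316 and 252 to 718, 693 and 729 CPM. Etfbkmt, a methyltransferase that acts on an electron carrier of the pathway, was the 1 that fell, from 144, 100.1 and 153 to 43.9, 47.2 and 42.1 CPM. Ketone body genes were split in their calls, while their summed level was higher with FH without overlap on both scalings. On totals the sum was 4514 to 5764 CPM with the vector and 5984 to 6620 CPM with FH. Of 11, 5 rose and 3 fell, or 3 rose without vector replicate 2, and 2 without vector replicate 3 or FH replicate 3. The 3 falls were a share close to the 29.5% of all genes. Slc16a6, a monocarboxylate carrier tied to ketone export, fell from 6.398, 7.79 and 7.85 to 1.36, 1.47 and 1.08 CPM (-1.88 on TMM scaling). Oxct1, which lets other tissues use ketone bodies and is low in liver, fell from 5.51, 5.11 and 7.28 to 1.94, 2.01 and 1.701 CPM. Aacs, which returns acetoacetate to lipid synthesis, rose by 1.97 on TMM scaling.

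Genes of drug metabolism rose more than they fell. Among xenobiotic P450 genes 13 of 29 tested rose (30 in the table) and 3 fell, or 1 without FH replicate 1 or 3. Cyp2c23 was at 104, 119 and 123 CPM with the vector and 268, 379 and 321 CPM with FH (2.11 on TMM scaling, edgeR adjusted p = 1.90e-06), and Cyp2a12 at 291, 339 and 293 against 732, 736 and 725 CPM (1.87). Both separated the groups fully. Cyp3a25 fell from 2228, 2259 and 2855 to 709, 874 and 1038 CPM. Conjugation enzymes rose in 9 of 33 tested cases (34 in the table) and fell in 4, and 23 were higher on TMM scaling, or 15 without FH replicate 3. On totals 6 were lower. Ugt1a1, which glucuronidates bilirubin, went from 15.6, 16.3 and 13.5 to 49.3, 46.1 and 51.8 CPM (2.31 on TMM scaling, 1.69 on totals), while Ugt1a6a fell from 24.9, 13.2 and 25.2 to 3.77, 5.68 and 7.498 CPM. The Ugt1a genes share their last exons, so reads there belong to neither alone. Sult1d1, a sulfotransferase, fell from 724, 839 and 1005 to 271, 267 and 269.7 CPM.

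In bile acid synthesis 3 of 17 tested genes rose (18 in the table) and 1 fell. On TMM scaling 12 were higher, and on totals 4 were lower. Slc27a5, which activates bile acids with coenzyme A, went from 546, 699 and 552 to 1034, 1115 and 1228 CPM (1.53 on TMM scaling). Baat, which then couples them to taurine or glycine, was lower on totals, at 687, 548 and 602 against 288, 314 and 279 CPM, and its TMM value of -0.44 (edgeR adjusted p = 0.0256) lost its call without FH replicate 1 (-0.45, adjusted p = 0.0777) or 3 (-0.44, adjusted p = 0.0798) or vector replicate 1 (-0.35, adjusted p = 0.08002). With vector replicate 2 left out the falls numbered 2, and 0 without FH replicate 3 or vector replicate 1.

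Glucose output and glycogen genes did not move as 1. Of 22 gluconeogenic genes 5 rose and 3 fell, with 3 rising without vector replicate 1 or 3 and 2 without FH replicate 1. Pcx, pyruvate carboxylase, which feeds oxaloacetate to the pathway, was at 305, 372 and 335 CPM with the vector and 831, 705 and 653 CPM with FH (1.73 on TMM scaling, edgeR adjusted p = 5.77e-06). G6pc, the catalytic subunit that releases free glucose, went the other way, from 658, 848 and 634 to 217, 252 and 233 CPM (-0.99 on TMM scaling, SE 0.17, adjusted p = 3.29e-04, and -1.61 on totals). Slc37a4, the transporter that works with it, rose by 1.39 on TMM scaling, and Creb1, a factor in the glucagon response, fell by 0.71. Of 18 tested glycogen genes (19 in the table) 7 rose and 1 fell, or 2 fell without vector replicate 1 or FH replicate 1. Pgm1, phosphoglucomutase, went from 100, 114 and 106 to 244, 231 and 236 CPM, Gbe1, the branching enzyme, rose by 1.46 on TMM scaling, and Ppp1r3c, which targets a phosphatase to glycogen, fell from 124, 102 and 156 to 38.1, 51.7 and 15.3 CPM.

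In insulin, glucagon and leptin signalling 3 of 32 tested genes rose (33 in the table) and 3 fell. The rises were close to the 8.07% of all genes and the falls below the 29.5% of all genes. Parts of the TOR kinase complexes moved in opposite directions. Mtor was at 33.2, 34.8 and 34.99 CPM with the vector and 48.1, 58.5 and 53.5 CPM with FH (1.26 on TMM scaling), and Rptor, the scaffold of complex 1, at 19.6, 26.1 and 24.4 against 32.8, 33.9 and 32.5 CPM (1.12). Rictor, the scaffold of complex 2, was at 45.9, 50.2 and 64.2 against 15.3, 14.97 and 12.3 CPM, and fell by 1.29 on the TMM log2 scale (edgeR adjusted p = 2.10e-05). Igf1r and Grb10 fell by 1.06 and 1.05. Among nuclear receptors and liver transcription factors 3 of 42 rose and 3 fell, and 19 were higher on TMM scaling and 17 lower on totals. Here too the rises were close to the share of all genes and the falls below it. Rxra, the shared partner of many nuclear receptors, went from 224, 301 and 258 to 509, 569 and 457 CPM and Cebpa from 158, 132 and 143 to 282, 214 and 206 CPM, while Onecut2 fell from 128, 112 and 177 to 54.3, 50.3 and 49.1 CPM.

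Iron-handling genes included hepcidin and its sensors among the rises. Of 25, 10 rose and 2 fell, and 10 were lower on totals. Hamp, the iron hormone hepcidin, was at 89.9, 219.9 and 159 CPM with the vector and 533, 463 and 586 CPM with FH (2.38 on TMM scaling, SE 0.27, edgeR adjusted p = 1.42e-05, and 1.75 on totals). Tfr2, an iron sensor upstream of hepcidin, went from 189.6, 231 and 225 to 356, 361 and 341 CPM, and Aco1, the iron-regulatory aconitase, from 104, 118 and 114 to 203, 228 and 189.6 CPM. Bmp2, which endothelial cells make and which drives hepcidin, fell from 24.7, 24.99 and 24.1 to 9.68, 8.76 and 9.47 CPM. In zinc handling 4 of 12 tested genes rose (16 in the table) and 1 fell, with the importer Slc39a4 at 1.94 and Slc30a10, a transporter known for manganese, at -1.32 on TMM scaling. Of 26 one-carbon genes 7 rose and 1 fell, or 2 fell without FH replicate 2, and 10 were lower on totals. Sardh, which oxidises sarcosine, went from 351, 504 and 431 to 1014, 1002 and 912 CPM. The folate enzyme gene Mthfd1 rose by 1.39 and the mitochondrial Mthfd1l by 2.78 on TMM scaling.

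The clock activators Arntl and Clock fell, and more clock output genes rose than fell. The activator Arntl (BMAL1) was at 22.8, 20.4 and 25.8 CPM with the vector and 2.77, 1.27 and 1.47 CPM with FH (-3.03 on TMM scaling, SE 0.25, edgeR adjusted p = 2.09e-06, and -3.66 on totals). Its partner Clock went from 79.9, 99.7 and 105 to 32.1, 28.2 and 24.8 CPM and Nfil3, a repressor at the D-box, from 45.03, 47.8 and 42.8 to 15.3, 12.9 and 11.3 CPM. All 3 fell with no overlap. The repressor Per3 rose from 4.62, 2.55 and 7.11 to 12.98, 9.98 and 11.5 CPM and Bhlhe41 from 0.405, 0.202 and 0.654 to 3.14, 2.202 and 1.35 CPM. Over the 19 core genes 3 rose and 6 fell, a share of falls close to the 29.5% of all genes. Over 19 output genes 9 rose, against 8.07% of all genes, and 3 fell. Dbp, Rgs16 and Wee1 (2.43, 1.68 and 1.39 against 22.1, 11.7 and 10.3 CPM) were among the rises, and Insig2, Leap2 (-1.44 on TMM scaling) and Lonrf3 (-1.32) were the falls. The labels give no hour of collection, and a difference in it between the groups was not tested.

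The D-box of the printed Alb and Per3 windows was rare. Among 27025 genes with a RefSeq promoter it was found in 1.11%, among the 10112 tested genes with one in 73 (0.722%), among the 857 risen genes with one in 14 (1.63%), and among the 2776 fallen genes in 19 (0.68%). It was in 1 of 14 core clock promoters and in 0 of 14 clock output promoters. The risen genes with it besides Alb and Per3 included Ces1g (2.51 on TMM scaling) and Slc22a26 (2.92), singled out after their values were seen. The promoter window of Dbp itself held neither motif. The E-box was found in 8.09% of all promoters, in 11.6% of those of tested genes, in 119 (13.9%) of the risen and 231 (8.32%) of the fallen genes, and in 4 of 14 core clock and 3 of 14 clock output promoters.

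Lysosomal genes rose where they changed on both scalings, and their promoters held the E-box more often than those of the other 6 lists searched. Of 32 tested, 14 rose and 0 fell, and 27 were higher on TMM scaling and 4 lower on totals. The rises on both scalings numbered 9 without FH replicate 3. Psap, the precursor of the saposins that present lipids to hydrolases, was at 287, 338 and 276 CPM with the vector and 575, 619 and 735 CPM with FH (1.72 on TMM scaling, edgeR adjusted p = 7.64e-06). Ctsd went from 66.8, 69.8 and 65.3 to 112, 109 and 136 CPM and Gaa from 50.3, 64.6 and 55.4 to 87.6, 97.1 and 113 CPM. Their groups did not overlap. The E-box was in 12 of the 25 lysosomal promoters at hand (48%), against 8.09% of all, and the Ctsd window printed above holds it at 2 places, 245 and 98 bases before the start. Whether the motif goes with the rise was not tested.

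Autophagy genes moved less evenly than the lysosome. Of 38, 3 rose, close to the 8.07% of all genes, and 5 fell, fewer than the 29.5% of all genes. On TMM scaling 23 were higher, with a median of 0.44, and on totals 11 were lower, with a median of -0.18. Atg7, the enzyme that starts both conjugation systems, went from 22.6, 30.2 and 27.8 to 51.9, 53.6 and 49.8 CPM (1.57 on TMM scaling, edgeR adjusted p = 4.58e-06). The ubiquitin-like proteins it acts on went the other way, with Atg12 at 76.9, 61.2 and 79.3 against 36.8, 30.5 and 32.7 CPM (-0.49) and Gabarapl2 at 156, 105 and 138 against 50.6, 50.5 and 54.8 CPM (-0.73), and the protease Atg4a fell by 0.72. Pik3r4, part of the lipid kinase complex of early autophagosomes, rose by 1.29. Of 23 tested NRF2 targets (26 in the table) 6 rose and 2 fell. Ephx1, microsomal epoxide hydrolase, went from 272, 223 and 206 to 582, 948 and 861 CPM, and Tkt, transketolase, from 30.6, 22.8 and 21.8 to 50.5, 63.1 and 55.4 CPM, while G6pdx, the first enzyme of the same pentose phosphate pathway, fell from 4.13, 5.38 and 5.81 to 1.83, 1.13 and 1.55 CPM. The antioxidant element TGACNNNGC, searched on both strands, was in 10 of 19 of the NRF2 target promoters and in 13.99% of all. Among tested genes it was in 16.75%, among risen ones in 15.64% and among fallen ones in 15.17%. In the other lists searched it ranged from 0 of 23 mitochondrial fatty acid oxidation promoters to 9 of 25 lysosomal ones.

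Targets of hypoxia-inducible factors and the dioxygenases that use 2-oxoglutarate were described because fumarate can act on these enzymes. Of 25 tested genes of the hypoxia pathway (28 in the table) 1 rose and 4 fell. On TMM scaling 13 were higher, and on totals 11 were lower. The falls numbered 2 without vector replicate 1 or FH replicate 1, and the rises 0 without vector replicate 2, vector replicate 3 or FH replicate 3 and 2 without FH replicate 1. Vegfa, the endothelial growth factor, was at 304, 260.4 and 381 CPM with the vector and 54.9, 57.2 and 61.7 CPM with FH (-1.81 on TMM scaling, SE 0.15, edgeR adjusted p = 2.61e-06, and -2.44 on totals). Kdm3a, a histone demethylase induced by hypoxia, fell from 29.4, 27.8 and 36.7 to 10.4, 11.2 and 10.2 CPM. The prolyl hydroxylase Egln3, itself a hypoxia target, was the 1 that rose, from 14.3, 7.73 and 11.2 to 15.7, 14.6 and 24.4 CPM, and its call on totals was lost without vector replicate 2 (0.52, adjusted p = 0.0829) or 3 (0.74, adjusted p = 0.05599) or FH replicate 3 (0.45, adjusted p = 0.127). Of 24 tested dioxygenases of chromatin and RNA (25 in the table) 2 rose and 10 fell, and 1 rose without vector replicate 2 or 3 or FH replicate 1 or 2. The 2 rises were a share close to the 8.07% of all genes. Tet2, which oxidises methylcytosine, went from 23.4, 29.2 and 39.3 to 2.88, 2.94 and 4.37 CPM (-2.53 on TMM scaling), Alkbh1 from 18.8, 17.8 and 19.3 to 2.98, 3.52 and 5.33 CPM and Alkbh8 from 19.3, 24.4 and 25.8 to 5.29, 5.48 and 5.84 CPM. Fto, which demethylates RNA, rose from 21.4, 24.4 and 19.5 to 33.97, 41.6 and 38.5 CPM.

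Stress lists went both ways. Among ER chaperones and XBP1 targets 4 of 25 rose (2 without FH replicate 1 or 2) and 2 fell (1 without vector replicate 3). The chaperones P4hb and Calr rose by 1.17 and 1.10 on TMM scaling and by 0.54 and 0.48 on totals, while Sdf2l1, a target of ER stress signalling, fell from 50.4, 37.5 and 68.5 to 16.7, 17.7 and 10.9 CPM. In the ATF4 response 5 of 21 tested genes rose (25 in the table), or 2 without vector replicate 3 or FH replicate 1 or 2 and 3 without FH replicate 3, and 4 fell, or 2 without FH replicate 2. Ddit3 (CHOP) fell from 7.05, 6.99 and 11.5 to 2.09, 2.01 and 3.02 CPM and Gdf15 from 8.99, 7.53 and 12.02 to 2.62, 3.67 and 3.904 CPM, whereas the serine enzyme gene Shmt2 rose from 124, 118 and 139.6 to 192, 180 and 171 CPM. Of 19 heat shock genes tested (20 in the table) 2 rose, Hspa4 (1.10 on TMM scaling) and Hspd1 (1.26), and 0 fell, or 2 without vector replicate 2 and 3 without FH replicate 1. The heat shock element, searched as GAA, TTC and GAA with 2 bases between each, was in 4 of 14 of their promoters, against 0.66% of all.

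Immediate early genes fell in a share close to that of all genes (29.5%). Of 23 tested (28 in the table), 2 rose and 7 fell. Dusp1, a phosphatase that shuts off MAP kinases, was at 28.7, 72.6 and 86.7 CPM with the vector and 10.7, 11.2 and 8.81 CPM with FH (-1.99 on TMM scaling, edgeR adjusted p = 1.07e-04), and Gadd45g at 29.9, 64.3 and 40.8 against 9.58, 7.58 and 5.02 CPM. Nr4a1, an orphan receptor induced by glucagon, fell by 1.72. Jund and Egr1 were the 2 that rose. In the cell cycle list 3 of 27 tested genes rose (32 in the table), or 1 without vector replicate 3, FH replicate 2 or FH replicate 3, and 5 fell. Cdkn1a, the inhibitor p21, went from 40.6, 129.8 and 80.1 to 13.7, 20.99 and 16.6 CPM and Ccnd2 from 10.1, 9.34 and 10.96 to 2.98, 2.99 and 2.74 CPM. Of 26 tested hepatokines and secreted regulators 5 rose and 8 fell, or 5 without FH replicate 2 or 3. The 8 falls were a share close to the 29.5% of all genes. Hgf, the hepatocyte growth factor, fell from 21.7, 28.2 and 28.5 to 3.87, 2.35 and 2.67 CPM and Agt, angiotensinogen, rose from 404, 443 and 348 to 674, 669 and 765 CPM.

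Most splicing regulators fell. Of 18 tested SR proteins and the CLK kinases that phosphorylate them (19 in the table), 0 rose and 14 fell, with a median of -1.08 on TMM scaling and -1.71 on totals. Srsf11 was at 197, 196 and 269 CPM with the vector and 35.01, 33.2 and 40.7 CPM with FH (-1.97 on TMM scaling, SE 0.15, edgeR adjusted p = 1.90e-06). Srsf7 went from 83.98, 75.7 and 88.1 to 14.4, 15.7 and 17.04 CPM and the kinase Clk4 from 93.1, 96.5 and 132 to 20.2, 17.4 and 23.3 CPM. No library of either group reached the other. Srsf9 stood apart, at 17.3, 17.7 and 18.2 against 17.1, 15.6 and 18.3 CPM, 0.56 on TMM scaling and -0.06 on totals.

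The hnRNPs and spliceosome core genes went both ways. Of 20, 4 rose and 5 fell, and 14 were lower on totals. The 5 falls were a share close to the 29.5% of all genes. Their summed level on TMM scaling was lower with FH without overlap, at 2797 to 2844 against 3212 to 3643 CPM. The difference from the SR proteins was not tested. Sf3b2, a part of the complex at the branch site, went from 73.9, 92.5 and 72.5 to 131, 123 and 124 CPM, the helicase Snrnp200 rose by 1.22 on TMM scaling and the scaffold Prpf8 by 1.29. Hnrnph1 fell from 244, 219.8 and 325 to 45.7, 28.1 and 38.2 CPM, Snrnp70, a part of the U1 particle, from 175, 164 and 245 to 40.9, 43.1 and 46.3 CPM and the helicase Ddx17 from 390.2, 420.4 and 592 to 101, 104 and 101 CPM.

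Noncoding RNAs of the nucleus had the lowest median of the 19 plotted lists. Of 26 tested nuclear RNAs and snoRNA hosts (30 in the table), 0 rose and 20 fell. Besides Malat1, Firre went from 80.5, 81.6 and 116 to 8.79, 10.3 and 14.9 CPM (-2.39 on TMM scaling) and Kcnq1ot1, the antisense RNA of an imprinted domain, from 7.29, 10.8 and 13.6 to 0.576, 0.636 and 1.01 CPM (-3.17). Norad, which acts in the cytosol, was at 114, 114 and 134 CPM with the vector and 119, 93.9 and 90.4 CPM with FH. Its ranges overlapped on totals (-0.26), and its TMM value of 0.37 lost its call without any 1 of the 6 libraries (0.22 to 0.40). Long noncoding genes in all took 0.885% to 1.20% of the counts with the vector and 0.303% to 0.349% with FH. Of 908 such genes tested 6 rose (0.661%) and 555 fell (61.1%), against 8.07% and 29.5% of all genes.

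Genes of protein synthesis and decay went in both directions. Of 28 translation factors 6 rose and 4 fell. Eif4g1, the scaffold of the cap complex, went from 219.5, 281 and 239 to 566, 620.2 and 469.9 CPM and Eif3c from 74.99, 95.9 and 84.04 to 182, 197 and 172 CPM, while the helicase gene Eif4a2 fell from 744, 613 and 782 to 275, 265 and 288 CPM. Of 81 cytosolic ribosomal protein genes tested (86 in the table), 3 rose and 21 fell (25.9%, against 29.5% of all genes). The falls numbered 12 without vector replicate 1 or FH replicate 1 and 38 without vector replicate 2, and 5 rose without vector replicate 1. The share of the counts from these genes was 3.75%, 2.06% and 3.09% in the vector libraries and 1.56%, 1.66% and 1.77% in the FH libraries, so the vector group itself spread widely. Rps24 was at 1323, 580 and 1012 CPM with the vector, lowest in replicate 2, and 223, 258 and 286 CPM with FH. In the proteasome 4 of 35 genes rose and 4 fell, or 1 without vector replicate 1 and 2 without FH replicate 1 or 2, with Psmd2 at 1.20 and Psmc6 at -0.59 on TMM scaling. Of 23 cytoskeletal genes 7 rose, or 4 without FH replicate 2, and 2 fell, or 5 without vector replicate 2. Krt8 and Krt18, the keratins of hepatocytes, rose by 1.67 and 1.497, and Flna and Tmsb4x, which many non-epithelial cells express strongly, fell by 1.71 and 1.30.

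Markers of sinusoidal endothelium, macrophages, neutrophils and erythroid cells were mostly lower with FH, the sums of cholangiocyte and of B and plasma cell markers overlapped on TMM scaling, and in bulk RNA fewer cells of a type and less RNA per cell cannot be told apart. All 14 sinusoidal endothelial markers fell, and their summed level was 586 to 738 CPM with the vector and 169 to 196 CPM with FH. Stab1, a scavenger receptor of these cells, went from 54.3, 78.9 and 89.8 to 9.74, 9.003 and 9.82 CPM (-2.33 on TMM scaling, edgeR adjusted p = 1.76e-06). Of 15 macrophage markers 12 fell and 0 rose, with sums of 595 to 822 against 207 to 226 CPM and Clec4f, a lectin specific to Kupffer cells, at 119, 189 and 159 against 41.2, 43.1 and 40.6 CPM. For stellate cells 4 of 14 fell, close to the 29.5% of all genes, or 7 without FH replicate 3, and without vector replicate 1 there was 1 rise, with sums of 543 to 629.6 against 184 to 337 CPM. The vitamin A enzyme gene Lrat fell from 29.9, 23.7 and 28.5 to 5.18, 4.36 and 7.11 CPM.

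Blood cell transcripts were lower for most of the types listed. The erythroid sum was 662 to 858 CPM with the vector and 151 to 224 CPM with FH, led by the globin Hbb-bs at 573, 573 and 476 against 82.2, 61.6 and 119 CPM (-2.00 on TMM scaling), and 3 of the 5 tested erythroid markers fell. The other 2, Alas2 and 1 of the 4 tested globin genes, were higher on TMM scaling and not called on totals. Without FH replicate 2 there was also 1 erythroid rise, of a globin gene. On totals Alas2, the erythroid haem synthase, overlapped between the groups at 40.1, 49.5 and 50.5 against 47.5, 58.6 and 42.6 CPM. Ptprc, the common antigen of leukocytes, went from 18.5, 27.1 and 30 to 3.77, 2.84 and 2.86 CPM. The 3 tested neutrophil markers fell, with Csf3r at 3.56, 5.44 and 6.21 against 0.733, 0.196 and 0.541 CPM, and Mpo and Ly6g had 0 counts in all 6 libraries. The lymphocyte sums were 23.4 to 36.8 against 5.09 to 6.26 CPM for T and NK cells and 11.4 to 20.9 against 8.001 to 12.7 CPM for B and plasma cells, which overlapped. The T and NK list includes Ptprc, which is not specific to these cells and made up most of the vector sum. Of its 4 tested markers 1 fell, or 2 without vector replicate 3. Of the adipocyte markers none was tested, Lep had 0 counts in all 6 libraries, and the sum was at most 1.94 CPM. Cholangiocyte markers fell in 1 of 6 tested cases, or 0 without vector replicate 2 or 3 or FH replicate 2 or 3. Hepatocyte markers rose in 7 of 12 and fell in 0, from 73428 to 95846 CPM up to 137691 to 150019.8 CPM in sum. Alb made up most of this sum, with 45427 of 82309 CPM in vector replicate 1 and 88928 of 146471 CPM in FH replicate 1. The part that these cell markers have in the results above was not tested.

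**Figure D4:**
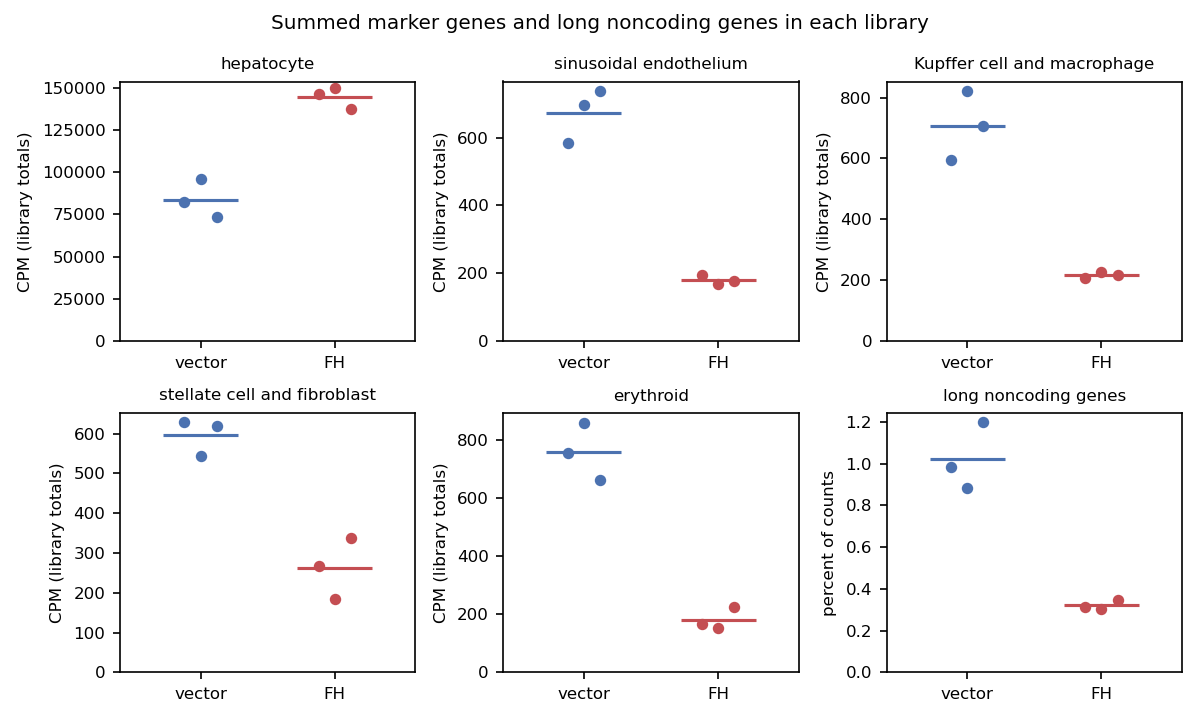
Summed level of marker genes in CPM of library totals, and the share of counts from long noncoding genes in percent (vertical axes from 0), in the 3 vector (blue) and 3 FH (red) libraries with the group mean as a line. The hepatocyte sum, most of it from Alb, is higher with FH and the other 5 panels are lower, with no overlap in any panel.

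The share of genes called differed with GC content, level and length. Among 11781 tested protein-coding genes with a length and GC content in GENCODE M21, the quartile of lowest GC (31.0% to 44.7%) had 2.55% risen and 41.8% fallen, and the quartile of highest GC (54.2% to 74.2%) had 12.7% risen and 19.4% fallen. The median log2 fold change on TMM scaling was -0.32 in the first and 0.26 in the last. In the quartile of lowest level (up to 4.74 CPM) 1.77% rose and 41.6% fell, and in that of highest level (from 42.9 CPM) 20.6% rose and 12.4% fell. The longest quartile (from 4872 exonic bases) had 5.43% risen and 33.1% fallen, against 9.13% and 19.3% in the shortest (up to 2244 bases). Of the 50 genes of highest share 20 rose (40%) and 3 fell (6%). The part of GC content, length, level or depth in any list above was not tested.

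**Figure D5:**
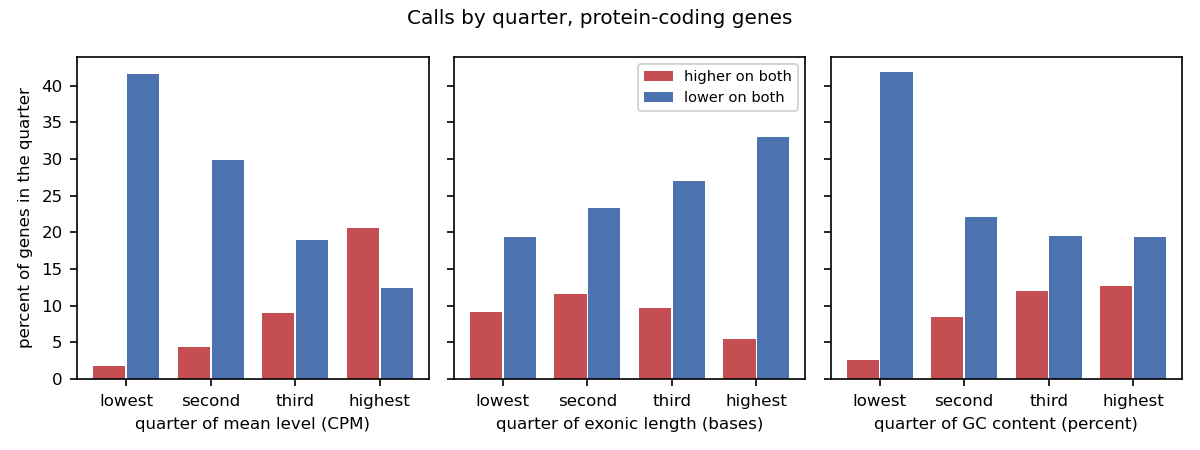
Percent of tested protein-coding genes called higher (red) or lower (blue) on both scalings in each quartile of mean level, exonic length and GC content. The lowest quartile of GC has 41.8% lower and 2.55% higher, and the highest quartile of level has 12.4% lower and 20.6% higher.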

How the data were processed

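Gene counts of 6 mouse liver RNA-seq libraries were taken from the authors' deposited table of raw counts. The submitters' processing notes name STAR 2.7.11a and GRCm39, and per the labels' protocols the libraries were made from 1 μg of total RNA with a stranded mRNA kit. Which tool, annotation and strand option produced the counts is something the labels and notes do not state. Of 56441 gene names in the table, 49047 were matched by symbol to GENCODE M21 (biotype, length, GC) and 1535 more to RefSeq (GRCm38.p6). All columns of the table were matched to samples by their names, and 0 were left unmapped.

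Counts were tested with edgeR 4.0.16 in R 4.3.3 (quasi-likelihood F test, FH minus vector, 4 residual degrees of freedom) on the 6 libraries, with TMM factors and again with library totals alone. Genes had to pass filterByExpr (10 counts, 15 in total), which left 13600. Adjusted p is Benjamini-Hochberg over all 13600 genes, called under 0.05, and each SE belongs to a log2 fold change. The steps were tested on simulated data. Other settings were DESeq2 1.42.0, other factors and filters, thinned counts, all 12 libraries in 1 model, a replicate block and leaving out each library. Totals without the 50 genes of highest share were added after values were seen. Library totals of 12231828 to 25873379 counts set the precision.

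Gene lists were described by counts and medians and not tested as sets. Named genes are Fh1 and Ulk1, the 10 largest rises and falls called on both scalings with no overlap and at least 20 CPM, the 8 genes that gained and the 8 that lost most CPM on totals, up to 3 called members per list and direction with the smallest adjusted p, and genes with opposed calls. Unnamed gene models were not eligible, and some genes are not reported here. The members, lists and rules were chosen with earlier results of these data known. Motifs were searched on both strands of the RefSeq windows from 250 bases before to 50 after the start.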

Additional observations from a re-analysis of the deposited data

How the results depend on the processing

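Library totals in place of TMM factors changed the balance of calls to 1098 higher and 7563 lower, and gave -0.064 for Srsf9, -0.26 for Norad, -0.30 for Fam8a1 and -0.29 for Arl8b, which are positive on TMM scaling. Requiring at least 10 CPM in 3 libraries left fewer genes to test, with 2129 higher and 2452 lower on TMM scaling, 3825 lower on totals and 2452 lower on both. Of the 2452 lower on TMM scaling only 1636 were lower in the main fit, so lower TMM calls also depended on the filter. Without a filter on low counts 4841 were lower on TMM scaling, and 3731 of these were lower in the main fit. The other settings kept each count within 1.5 times of the main one, with DESeq2 calling 3747 higher and 3781 lower, and all 12 libraries in 1 model 4173 and 4208. Totals without the 50 genes of highest share, added after values were seen, gave a median of -0.48 over all genes. As single libraries were left out, TMM calls ranged from 3156 to 3858 higher and from 3649 to 4376 lower, calls on totals from 870 to 1078 higher and from 7012 to 7929 lower, and calls on both from 870 to 1078 higher and from 3649 to 4376 lower. Ulk1, which was not called on TMM scaling, ranged from -0.22 (without vector replicate 1) to 0.039 (without vector replicate 2), and was also positive without FH replicate 3 (0.0080) and vector replicate 3 (0.016), where the cause was not tested. Replicate numbers showed no pairing in these values. The deviations of same-numbered libraries from their group means correlated at -0.07, 0.03 and -0.13, and those of differently numbered ones at -0.12 to 0.19. With 3 libraries in a group such values cannot exclude a pairing. With a replicate block 3755 genes were higher and 3816 lower on TMM scaling, 986 and 7287 on totals, and 986 and 3816 on both.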

Other observations

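Antigen presentation is not described above. Of 27 tested genes 4 rose and 2 fell on both scalings, with 1 falling without vector replicate 2 or FH replicate 2. B2m, the light chain of class I molecules, was at 819.7, 917 and 756 CPM with the vector and 1155, 1229.6 and 1328 CPM with FH (1.20 on TMM scaling, edgeR adjusted p = 8.65e-05, and 0.57 on totals), and the heavy chain H2-K1 at 559, 743 and 538 against 948, 955 and 1074 CPM (1.31 on TMM scaling). Nlrc5, a transactivator of class I genes, went the other way, from 23, 38.97 and 42.1 to 10.3, 13.1 and 11.9 CPM (-0.93 on TMM scaling).

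Of 78 mitochondrial ribosomal protein genes 3 rose and 4 fell on both scalings, or 10 fell without vector replicate 2 and 1 rose without vector replicate 2 or 3. Mrps2 was at 31.6, 33.9 and 30.3 CPM with the vector and 49.6, 45.1 and 55.5 CPM with FH, and Mrpl53 at 106, 57.9 and 91.2 against 29.1, 25.3 and 28.5 CPM, and neither gene's groups overlapped.

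A few transcripts that overlap or resemble ribosomal RNA sequence were higher with FH and, apart from Lars2, were singled out after their values were seen. Mir6236, which lies in ribosomal RNA sequence, was at 0.162, 0.538 and 0.164 CPM with the vector and 7.48, 9.64 and 8.12 CPM with FH. Rn18s-rs5, a copy related to 18S RNA, was at 1585, 1066 and 1483 against 1679, 5372 and 2947 CPM, widest in FH. Lars2, the mitochondrial leucine tRNA synthetase, was at 35.9, 32.4 and 29.2 against 83.4, 160 and 190.1 CPM. Their part in the other results was not tested.

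Gene models without a name made up 1373 of the tested genes, of which 26 rose and 775 fell on both scalings. Of 180 models that the annotation lists as still to be experimentally tested, 1 rose (0.556%) and 132 fell (73.3%). Of all genes 8.07% rose and 29.5% fell.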
